A study of Homo sapiens with 4 samples.

Results

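The lysosome genes examined here are 44 in number and comprise lysosomal hydrolases, membrane proteins, the MiT/TFE transcription factors and the subunits of the proton pump V-ATPase. They were chosen by symbol, and all 44 had a single row among the 57979 lines with values in the deposited table. RNA was sequenced from WT cells labelled HepG2, a hepatocellular carcinoma line, with 2 libraries, and from TXNDC9-KO cells of the same label, also with 2 libraries. TXNDC9, a thioredoxin domain protein that modulates the TCP1 chaperonin, had been targeted with CRISPR-Cas9 delivered by a lentivirus carrying either of a pair of guides. Both groups were grown in DMEM with fetal bovine serum. For the sequenced cells the sources used here do not say which guide was used, whether they were a clone or a pool, or whether the WT cells carried an empty vector, and GEO's labels do not say whether the replicates were separate cultures. A legend of the study calls its RNA-seq values those of independent experiments, but gives a number that differs from the libraries analysed here. The p-values therefore measure the spread between these libraries, which may be technical. The question put to the lysosome genes was how their mRNA levels differed between the TXNDC9-KO and the WT libraries.

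The libraries were checked against their labels. TXNDC9 was 35.1 and 37.3 FPKM, a level per length of transcript and per size of library, in WT and 21.9 and 27.6 FPKM in TXNDC9-KO, with a log2 fold change of -0.55 (SE 0.14, adjusted p = 0.0145, limma with Benjamini-Hochberg adjustment). It was below WT in both knockout libraries, but it did not pass the thresholds used here, and after rescaling to TPM its value was 0.12. A frameshift need not remove the mRNA, and no protein was measured in these files. By western blot the study reported less TXNDC9 protein in sorted HepG2 cells with Cas9 and guide than with vector alone. It does not say whether those were the sequenced cells. Of 10 genes that mark hepatoma cells, such as ALB, AFP, APOA1 and HNF4A, 0 exceeded 1 FPKM in any library. The highest value was 0.449 FPKM for AFP, and APOA1 was listed at 0 in all 4 libraries. In the same columns 75 of 78 genes named for cytosolic ribosomal proteins had a mean above 1 FPKM, 0 of the 78 were at 0 in all 4 libraries, and the 75 had medians of 1885 and 2511 FPKM in WT and 909 and 986 FPKM in TXNDC9-KO. The defining transcripts of the labelled line were therefore absent or near 0, and the cells are called below only by their group. Macrophages, whose lysosomes are abundant, were checked as another source: of 8 leukocyte and macrophage markers 1 (AIF1) reached 1.01 FPKM in a library, and their summed level ranged from 1.51 to 2.67 FPKM in WT and from 1.83 to 2.17 FPKM in TXNDC9-KO. In these bulk libraries a smaller share of cells expressing a gene and less RNA per cell cannot be told apart.

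Lysosomes are acidic organelles in which hydrolases digest proteins, glycans and lipids that arrive by endocytosis and autophagy. The V-ATPase pumps protons into them. Its V1 sector in the cytosol hydrolyses ATP and turns a rotor, and its V0 sector in the membrane conducts the protons. Many genes of both groups share a promoter element, known as CLEAR, that is bound by TFEB, TFE3 and MITF. These factors are held in the cytosol when mTORC1 is active on the lysosomal surface. In hepatocytes this system takes part in the turnover of lipid droplets, glycogen and plasma glycoproteins.

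The 44 genes moved in both directions between the groups. Calls required at least a 2-fold change and an adjusted p from limma under 0.01 among the 13246 genes with a mean above 1 FPKM, a filter that all 44 passed. Of the 44, 6 fell in TXNDC9-KO, namely ATP6V0C, TFEB, ATP6V0B, ATP6V1F, ATP6V0E1 and MCOLN1, and 2 rose, ATP6V1A and MITF. The share that fell was 13.6%, against 15.3% of all tested genes, and the share that rose was 4.55%, against 14.2%. The share that fell was close to that of all genes. Both knockout values lay below both WT values for 24 genes (54.5%, against 45.9% of all tested genes) and above them for 14 (31.8%, against 40.1%), and the groups overlapped for 6. At an adjusted p under 0.01 with any fold change, 10 genes were lower and 8 higher, where 27.1% and 23.7% of all tested genes were. The median log2 fold change was -0.36 for the 44 genes and -0.09 for all tested genes. An exact permutation test of a single gene cannot go below p = 0.33 with 2 libraries against 2, and limma therefore borrows its estimate of spread from all genes. Without TXNDC9-KO replicate 1 or 2, 0 of the 44 were called, with smallest adjusted p-values of 0.0237 and 0.0232 in limma and an unadjusted p under 0.05 in 17 and 20 genes.

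**Figure D1:**
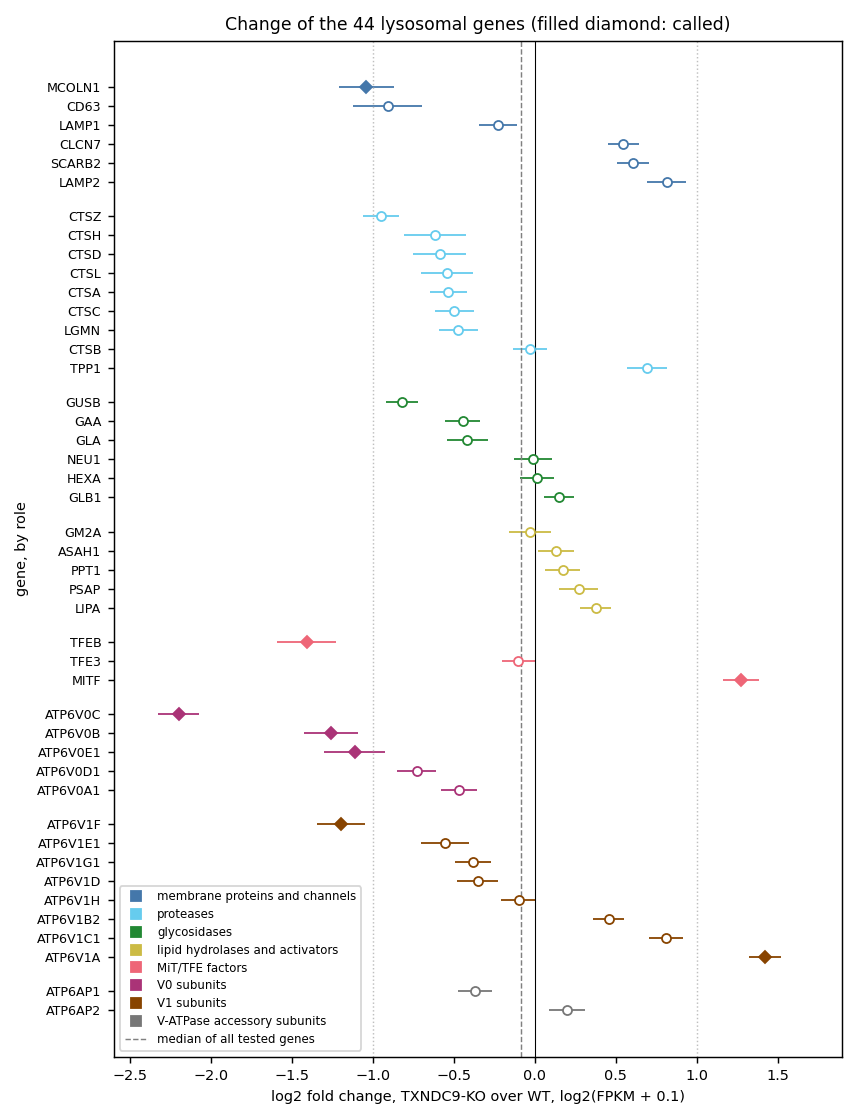
Log2 fold change of TXNDC9-KO over WT (x axis) for each of the 44 genes (y axis, grouped by role), with bars of 1 standard error from limma, filled diamonds for called genes, dotted lines at 2-fold and a dashed line at the median of all tested genes. All 5 V0 genes lie below 0 in FPKM as deposited, from -2.20 to -0.47 (ATP6V0A1 was at 0.21 after rescaling to TPM), while the V1 genes run from -1.20 to 1.42, and TFEB and MITF stand on opposite sides.

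Among the transcription factors, the levels of TFEB and MITF changed in opposite directions. TFEB (chr6:41683978-41736259, hg38), the master regulator of lysosome genes, was 3.72 and 4.19 FPKM in WT and 1.45 and 1.40 FPKM in TXNDC9-KO. Both knockout values lay far below both WT values, and the log2 fold change was -1.41 (SE 0.18, adjusted p = 0.00136, limma). MITF (chr3:69739456-69968336), its relative best known from melanocytes, was 14.4 and 13.2 FPKM in WT and 31.6 and 35.3 FPKM in TXNDC9-KO. The groups did not overlap, with a log2 fold change of 1.27 (SE 0.11, adjusted p = 5.95e-04, limma). TFE3, the third factor, was 28.8 and 26.9 FPKM in WT and 24.9 and 27.1 FPKM in TXNDC9-KO, with overlapping groups and a log2 fold change of -0.10 (SE 0.10, adjusted p = 0.423, limma).

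The order of the levels of the 3 factors differed between the groups. In WT it was TFE3, MITF, TFEB, and in TXNDC9-KO MITF, TFE3, TFEB. The ratio of 2 FPKM values within a library does not depend on how that library was scaled, and such ratios were computed after the values had been seen, without a test. MITF to TFEB was 3.87 and 3.14 in WT and 21.8 and 25.2 in TXNDC9-KO, a 6.73-fold change, which became 2.32-fold when length and GC content were adjusted for. MITF to TFE3 was 0.499 and 0.489 in WT and 1.27 and 1.30 in TXNDC9-KO, a 2.60-fold change, or 1.31-fold with that adjustment. The ratios show unequal change among the 3 factors. When length and GC content of the transcripts were adjusted for, as described further on, TFEB had a log2 fold change of -0.59 (adjusted p = 0.0376, limma) and MITF one of 0.62 (adjusted p = 0.00625, limma), and neither was called.

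The promoters of the 44 genes were searched for the letters that these factors recognise. RefSeq promoter sequences (GRCh38.p14) were matched by symbol for 33 of the 44, and the 250 bases before the start were searched on both strands. The E-box CACGTG, which MYC with MAX also binds, stood in 11 of the 33 (33.3%), against 6.34% of 35116 promoters and 9.26% of those of tested genes. The longer form CACGTGAC, which contains it, stood in 9 (27.3%, against 2.16% of all promoters and 4.17% of those of tested genes), and TCACGTGA, the centre of the CLEAR element, in 6 (18.2%, against 0.854% and 1.81%). The 11 genes with CACGTG had a median log2 fold change of -0.53 and the other matched genes one of -0.39. Both medians were negative in FPKM as deposited. The median of all 44 genes was 0.32 after rescaling to TPM and -0.09 with length and GC content adjusted for. A match describes letters and not a bound site. The windows of the 6 genes with TCACGTGA are shown, with those of ATP6V0B and CTSD, which hold CACGTGAC, to set a called gene and an abundant hydrolase beside them, and that of CLCN7, which holds CACGTGAC and was higher in TXNDC9-KO. They read 5′ to 3′ on the strand of the gene, and CACGTG is in capitals.
MCOLN1, chr19:7522571-7522600, plus strand: accagaggcggtCACGTGaggggctctggg
LAMP1, chr13:113297199-113297228, plus strand: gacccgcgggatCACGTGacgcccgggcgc
CTSA, chr20:45891298-45891327, plus strand: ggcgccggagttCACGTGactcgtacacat
GAA, chr17:80101493-80101522, plus strand: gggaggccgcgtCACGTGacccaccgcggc
ATP6V0D1, chr16:67481199-67481228, minus strand: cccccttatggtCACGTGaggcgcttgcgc
ATP6V1G1, chr9:114587699-114587728, plus strand: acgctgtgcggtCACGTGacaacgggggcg
ATP6V0B, chr1:43974891-43974920, plus strand: ccggcgtggggtCACGTGgtaccggcgcat
CTSD, chr11:1763957-1763986, minus strand: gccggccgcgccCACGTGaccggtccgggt
CLCN7, chr16:1475038-1475067, minus strand: cccgtcgcgcgtCACGTGgccgccggcgcg

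Of these genes MCOLN1 and ATP6V0B fell in TXNDC9-KO, and the others were not called. The log2 fold changes of ATP6V0D1, CTSD, CTSA, GAA, ATP6V1G1 and LAMP1 ran from -0.73 to -0.23, and that of CLCN7 was 0.55. The promoter of LAMP1 held CACGTG at 5 positions, the most of the 33 matched genes. After the adjustment for length and GC content LAMP1, CTSA, GAA and CTSD were at 0.033, 0.059, 0.084 and 0.25. ATP6V0B, MCOLN1, ATP6V1G1 and ATP6V0D1 were then at -0.44, -0.33, -0.26 and -0.031, and CLCN7 at 0.97.

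The 5 genes of the V0 sector of the V-ATPase among the 44 were all lower in TXNDC9-KO in FPKM as deposited. ATP6V0A1 was at 0.21 after rescaling to TPM. Of the 5 genes, 3 fell, where 15.3% of all tested genes did. Both knockout values lay below both WT values in all 5, and in 45.9% of all tested genes. With length and GC content adjusted for, the 5 ran from -1.24 (ATP6V0C, the gene still called) to -0.031 (ATP6V0D1). Of the tested V0 genes outside the 44, ATP6V0A2 and ATP6V0A4 had log2 fold changes of 0.74 and 0.65 as deposited. TCIRG1 and ATP6V0E2, also outside the 44, had -1.12 and -0.62. ATP6V0C (chr16:2513952-2520218), the proteolipid that builds the rotating c-ring, was 528 and 578 FPKM in WT and 115 and 125 FPKM in TXNDC9-KO. It had the largest change of the 44 genes, a log2 fold change of -2.20 (SE 0.13, adjusted p = 4.87e-04, limma), and 1.31% of all tested genes had a lower one. ATP6V0B, the related proteolipid of the same ring, was 255 and 339 FPKM in WT and 118 and 127 FPKM in TXNDC9-KO, with a log2 fold change of -1.26 (SE 0.17, adjusted p = 0.00153, limma). Both WT libraries stood above both knockout libraries, although WT replicate 2 was the higher of the WT pair in each gene. ATP6V0E1, a small membrane subunit, was 246 and 347 FPKM in WT and 129 and 141 FPKM in TXNDC9-KO, with a log2 fold change of -1.11 (SE 0.19, adjusted p = 0.00352, limma). Without WT replicate 2 the log2 fold change of ATP6V0E1 was -0.86, short of 2-fold.

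The other V0 genes were not called. ATP6V0D1, which joins the rotor to the ring, was 89.9 and 96.7 FPKM in WT and 52.4 and 60.2 FPKM in TXNDC9-KO (log2 fold change -0.73, adjusted p = 0.00297, limma). ATP6V0A1, the large subunit that guides protons past the ring, was 39.6 and 45.3 FPKM in WT and 30.2 and 30.9 FPKM in TXNDC9-KO (log2 fold change -0.47, adjusted p = 0.0117, limma). The summed V0 level was 1157 and 1407 FPKM in WT and 445 and 485 FPKM in TXNDC9-KO. ATP6V0C is overlapped on its own strand by exons of 2 other annotated protein-coding genes, which did not exceed 0.587 FPKM, and it has 4 annotated pseudogene copies, as does ATP6V0E1, so reads may be shared.

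**Figure D2:**
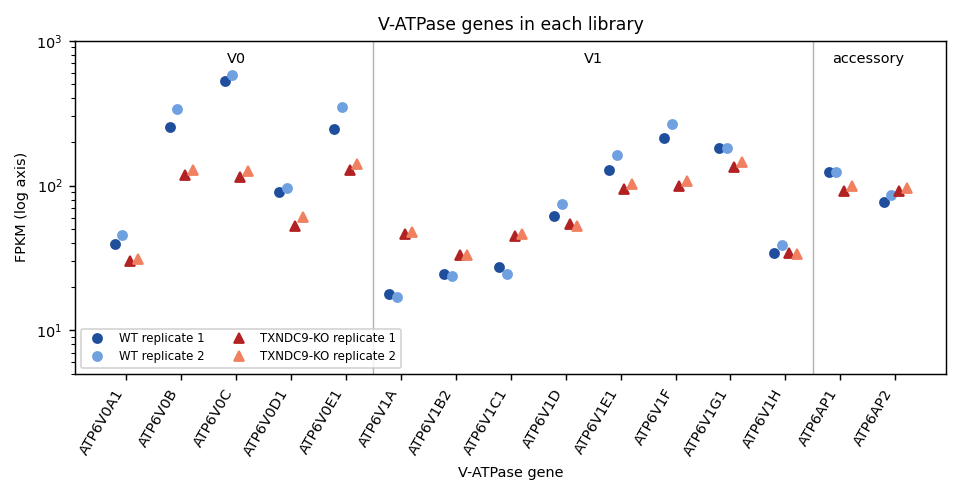
FPKM of each V-ATPase gene (x axis, by sector) in the 4 libraries (y axis, log scale), with circles for WT and triangles for TXNDC9-KO, 1 point per library. ATP6V0C stands at 528 and 578 in WT and at 115 and 125 in TXNDC9-KO, and ATP6V1A at 17.9 and 17.0 in WT and at 46.1 and 47.7 in TXNDC9-KO.

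The V1 sector was split, with 1 of its 8 genes among the 44 called higher and 1 called lower, where 14.2% and 15.3% of all tested genes were. ATP6V1A (chr3:113746770-113812056), the catalytic subunit that binds and hydrolyses ATP, was 17.9 and 17.0 FPKM in WT and 46.1 and 47.7 FPKM in TXNDC9-KO. This was the largest rise among the 44 genes, with a log2 fold change of 1.42 (SE 0.10, adjusted p = 5.12e-04, limma). ATP6V1F, a small subunit of the rotor, was 211 and 268 FPKM in WT and 99.8 and 107 FPKM in TXNDC9-KO, with a log2 fold change of -1.20 (SE 0.15, adjusted p = 0.00128, limma).

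The remaining V1 genes were not called. ATP6V1C1, which clamps the peripheral stalks, was 27.2 and 24.6 FPKM in WT and 44.9 and 46.0 FPKM in TXNDC9-KO, and ATP6V1B2, the partner of the catalytic subunit, 24.5 and 23.7 against 33.0 and 33.2 FPKM. Their log2 fold changes were 0.81 and 0.46, with adjusted p-values of 0.00137 and 0.00737 from limma. With length and GC content adjusted for, these values were 3.9e-04 and 0.33. The stalk genes ATP6V1E1 and ATP6V1G1 and the rotor gene ATP6V1D had log2 fold changes of -0.56, -0.38 and -0.35. Each had both knockout values below both WT values, as did 45.9% of all tested genes. After rescaling to TPM these log2 fold changes were 0.12, 0.30 and 0.33. ATP6V1H, a regulatory subunit, overlapped between the groups at 34.3 and 39.0 FPKM in WT and 34.5 and 33.7 FPKM in TXNDC9-KO.

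The accessory subunits showed smaller differences. ATP6AP1, which takes part in pump assembly, was 123.0 and 124 FPKM in WT and 92.1 and 98.6 FPKM in TXNDC9-KO (log2 fold change -0.37, SE 0.11, adjusted p = 0.0232, limma). ATP6AP2, also known as the prorenin receptor, was 77.5 and 86.4 FPKM in WT and 92.2 and 95.8 FPKM in TXNDC9-KO (log2 fold change 0.20, SE 0.11, adjusted p = 0.160, limma). Neither was called, and the groups did not overlap in either. Of all tested genes 45.9% lay below and 40.1% above WT in both knockout libraries.

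The levels of the V-ATPase genes were nearer to each other in TXNDC9-KO. FPKM is a level per transcript length, but differences between the groups still followed length among the 15 V-ATPase genes, with a Spearman correlation of 0.864, and the part of length in what follows was not tested. Within the 15 V-ATPase genes the highest level was 29.5 and 34.0 times the lowest in the WT libraries and 4.42 and 4.71 times the lowest in the TXNDC9-KO libraries. In WT the order ran from ATP6V0C at 553 ± 35.7 FPKM (SD, n = 2) down to ATP6V1A at 17.4 ± 0.591 FPKM, with ATP6V0B (297 ± 59.9) and ATP6V0E1 (296 ± 71.9) closer together than their spread. In TXNDC9-KO it ran from ATP6V1G1 at 139 ± 8.48 FPKM, with ATP6V0E1 at 135 ± 8.79 FPKM within the spread of it, down to ATP6V0A1 at 30.5 ± 0.474 FPKM. ATP6V1A to ATP6V0C, a ratio chosen after the values had been seen and independent of library scaling, was 0.0339 and 0.0295 in WT and 0.401 and 0.380 in TXNDC9-KO, a 12.4-fold change. With length and GC content adjusted for, it changed 4.05-fold. ATP6V1A to its partner ATP6V1B2 was 0.728 and 0.718 in WT and 1.40 and 1.43 in TXNDC9-KO, a 1.96-fold change, or 1.37-fold with the adjustment.

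The membrane proteins and channels of the lysosome were split evenly, with 3 of 6 genes below and 3 above WT in both knockout libraries. Of all tested genes 45.9% lay below and 40.1% above in this way. MCOLN1 (chr19:7522624-7534009), the calcium channel TRPML1, was the called gene of this group. It was 28.7 and 39.7 FPKM in WT and 15.8 and 16.9 FPKM in TXNDC9-KO, with a log2 fold change of -1.04 (SE 0.17, adjusted p = 0.00297, limma). Without WT replicate 2, the higher WT library, this value was -0.81 and no longer past 2-fold. CD63, a tetraspanin of late endosomes and the most abundant of the 44 genes, was 563 and 828 FPKM in WT and 354 and 374 FPKM in TXNDC9-KO (log2 fold change -0.91, SE 0.21, adjusted p = 0.0113, limma). It was not called, and its WT libraries differed from each other more than those of any other of the 44 genes, by 0.56 on the log2 scale. Without WT replicate 1 its log2 fold change was -1.19, past 2-fold, and without WT replicate 2 it was -0.63. The value was -0.23 after rescaling to TPM and -0.33 with length and GC content adjusted for.

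LAMP1 and LAMP2, the glycoproteins that line the lysosomal membrane, stood on opposite sides in FPKM as deposited, but at 0.45 and 1.49 after rescaling to TPM and at 0.033 and -0.20 with length and GC content adjusted for. LAMP1 was 164 and 164 FPKM in WT and 132 and 148 FPKM in TXNDC9-KO, a log2 fold change of -0.23. LAMP2, which also serves chaperone-mediated autophagy, was 27.5 and 31.6 FPKM in WT and 49.0 and 54.8 FPKM in TXNDC9-KO, a log2 fold change of 0.81 (SE 0.12, adjusted p = 0.00220, limma) that was short of 2-fold. SCARB2, the carrier of glucocerebrosidase, and CLCN7, a chloride-proton exchanger, had log2 fold changes of 0.61 and 0.55, with adjusted p-values of 0.00292 and 0.00401 from limma. With length and GC content adjusted for, these values were -0.0081 and 0.97. An antisense gene with exons over CLCN7 was 55.2 and 66.6 FPKM in WT and 19.9 and 18.8 FPKM in TXNDC9-KO, and the use of strand in counting is not given in the sources used here, so the value of CLCN7 is uncertain.

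Of the 9 proteases 0 were called in limma, and 7 had both knockout values below both WT values in FPKM as deposited, as did 45.9% of all tested genes, although 6 of these 7, all but CTSZ, were above 0 after rescaling to TPM. The unadjusted p from limma was under 0.05 for those 7 and for TPP1, as it was for 9442 of the 13246 tested genes. Of all tested genes 15.3% were called lower and 14.2% higher. CTSZ, a carboxypeptidase, was nearest to the 2-fold limit. It was 187.5 and 203 FPKM in WT and 100.02 and 101 FPKM in TXNDC9-KO. Its log2 fold change was -0.95 (SE 0.11, adjusted p = 0.00103, limma). Without WT replicate 1 this value was -1.01, past the limit, and without WT replicate 2 it was -0.90. The value was -0.27 after rescaling to TPM and -0.17 with length and GC content adjusted for. CTSD, the main aspartic protease and the most abundant of the group, was 262 and 340.1 FPKM in WT and 190.4 and 207 FPKM in TXNDC9-KO (log2 fold change -0.59, SE 0.16, adjusted p = 0.0212, limma). The cysteine proteases CTSH, CTSL and CTSC, the carboxypeptidase CTSA and the asparaginyl endopeptidase LGMN lay between -0.62 and -0.47 on the log2 scale. CTSB, a further cysteine protease, overlapped between the groups, at 58.5 and 64.6 FPKM in WT and 60.7 and 59.7 FPKM in TXNDC9-KO. TPP1, a tripeptidyl peptidase, was the protease with higher knockout values: it was 17.3 and 15.2 FPKM in WT and 24.5 and 28.0 FPKM in TXNDC9-KO (log2 fold change 0.69, SE 0.12, adjusted p = 0.00419, limma).

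**Figure D3:**
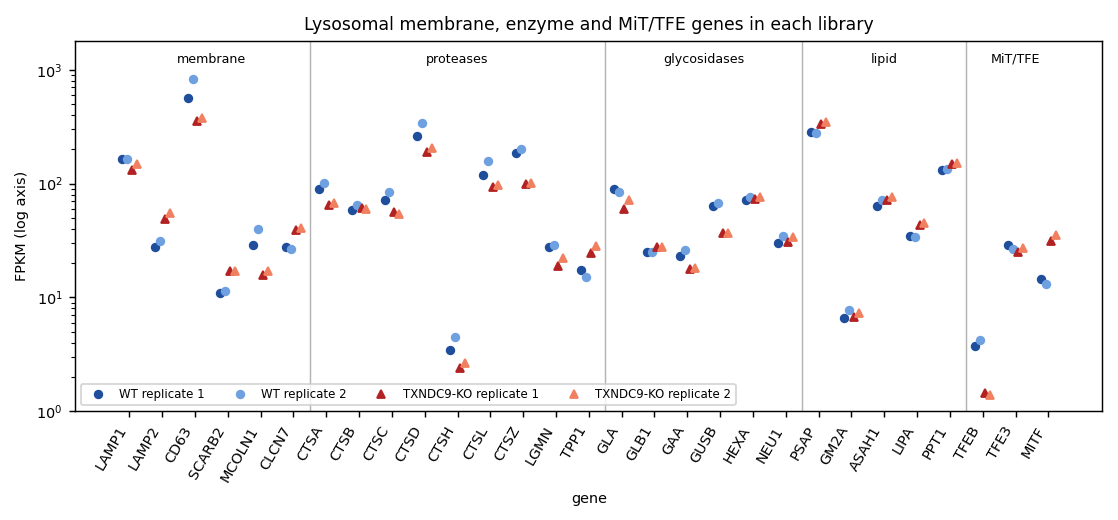
FPKM (y axis, log scale) of the lysosomal membrane, protease, glycosidase, lipid hydrolase and MiT/TFE genes (x axis) in the 4 libraries, with circles for WT and triangles for TXNDC9-KO. In 7 of 9 proteases both triangles lie below both circles in FPKM as deposited (after rescaling to TPM, 6 of these 7 were above 0), and in 4 of 5 lipid genes both lie above. Among all tested genes 45.9% lay below and 40.1% above.

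The glycosidases, which remove sugars from glycoproteins and glycolipids, held 0 called genes of 6 in limma. Of all tested genes 15.3% fell and 14.2% rose. GUSB, GAA and GLA had an unadjusted p under 0.05 in limma, as did 9442 of the 13246 tested genes. GUSB, which cleaves glucuronic acid from glycosaminoglycans, was 63.3 and 67.0 FPKM in WT and 36.9 and 36.8 FPKM in TXNDC9-KO, with a log2 fold change of -0.82 (SE 0.10, adjusted p = 0.00113, limma). The annotation holds 18 pseudogenes named after GUSB, so its reads may be shared. GAA, the acid glucosidase that degrades glycogen, was 23.0 and 26.2 FPKM in WT and 17.7 and 18.3 FPKM in TXNDC9-KO (log2 fold change -0.45, SE 0.11, adjusted p = 0.0137, limma). GLA, the alpha-galactosidase deficient in Fabry disease and the glycosidase with the highest mean over the 4 libraries, was 89.3 and 84.8 FPKM in WT and 59.6 and 71.2 FPKM in TXNDC9-KO (log2 fold change -0.42, SE 0.13, adjusted p = 0.0282, limma). HEXA, the hexosaminidase subunit deficient in Tay-Sachs disease, and NEU1, a sialidase, overlapped between the groups, with log2 fold changes of 0.02 (SE 0.11) and -0.01 (SE 0.12). In both TXNDC9-KO libraries HEXA, at 73.1 and 76.7 FPKM, was above GLA. GLB1, the beta-galactosidase, had a log2 fold change of 0.15 (SE 0.09).

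The lipid hydrolases and their activators were the group with 0 genes below WT in both knockout libraries, and 4 of 5 lay above it. Among all tested genes these shares were 45.9% below and 40.1% above. None of the 5 was called in limma, where 15.3% of all tested genes fell and 14.2% rose. In limma 1 of the 5 had an unadjusted p under 0.05, as did 9442 of the 13246 tested genes. The log2 fold changes of the 5 ran from -0.03 to 0.38. LIPA, the acid lipase that releases cholesterol and fatty acids from lipoproteins, was 34.4 and 33.7 FPKM in WT and 43.3 and 45.1 FPKM in TXNDC9-KO (log2 fold change 0.38, SE 0.10, adjusted p = 0.0159, limma). PSAP, the precursor of the saposins, was 287 and 280.4 FPKM in WT and 334 and 350.05 FPKM in TXNDC9-KO (log2 fold change 0.27, SE 0.12, adjusted p = 0.0939, limma). PPT1, which removes palmitate from proteins, and ASAH1, the acid ceramidase, had log2 fold changes of 0.17 and 0.13. GM2A, the activator for ganglioside GM2, was the overlapping gene of the group, with a log2 fold change of -0.03.

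The summed level of the 20 hydrolases and activators was 1663 and 1845 FPKM in WT and 1461 and 1535 FPKM in TXNDC9-KO. That of the 15 V-ATPase genes was 2043 and 2408 FPKM in WT and 1169 and 1247 FPKM in TXNDC9-KO. Neither sum overlapped between the groups. As a share of the total FPKM of each library, the hydrolases took 0.206% and 0.190% in WT and 0.273% and 0.270% in TXNDC9-KO, the opposite direction, and the V-ATPase genes 0.254% and 0.248% in WT and 0.218% and 0.219% in TXNDC9-KO. The median log2 fold change was -0.22 for the hydrolases and -0.38 for the V-ATPase genes, and 0.45 and 0.30 after rescaling to TPM. The sums are led by a few abundant genes, PSAP and CTSD among the hydrolases and the V0 proteolipids among the V-ATPase genes in WT.

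The changes of the 44 genes followed the length and base composition of their transcripts. Across the 44, Spearman's rho of the change with canonical transcript length in GENCODE 44 was 0.78, and with GC content it was -0.585. Across 13112 tested genes these values were 0.495 and -0.462. These are descriptions across genes, which share their libraries and are not independent replicates. The called lower genes had transcripts of 678 nt (ATP6V1F) to 2333 nt (TFEB), and the called higher genes ATP6V1A and MITF 4575 and 4799 nt. The difference between the WT replicates also followed length among the 44 genes, with a correlation of -0.457, and that between the TXNDC9-KO replicates had one of -0.145. After a loess surface over length and GC content had been subtracted in each library, 33 of the 44 values lay nearer to 0, and the median log2 fold change was -0.09 for the 44 genes and -0.07 for all tested genes. ATP6V0C was then the called gene of the 44, with a log2 fold change of -1.24 (adjusted p = 0.00180, limma). ATP6V1A had 0.78 (adjusted p = 0.00256), ATP6V0E1 -0.87 (adjusted p = 0.00819), CLCN7 0.97 (adjusted p = 0.00198) and TPP1 0.58 (adjusted p = 0.00987, limma), each short of 2-fold. The other genes called lower as deposited were weaker. TFEB had -0.59 (adjusted p = 0.0376), ATP6V1F -0.54 (adjusted p = 0.0107), ATP6V0B -0.44 (adjusted p = 0.0310) and MCOLN1 -0.33 (adjusted p = 0.132, limma). The part of length and GC content in the deposited values was not tested apart from the genotype.

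**Figure D4:**
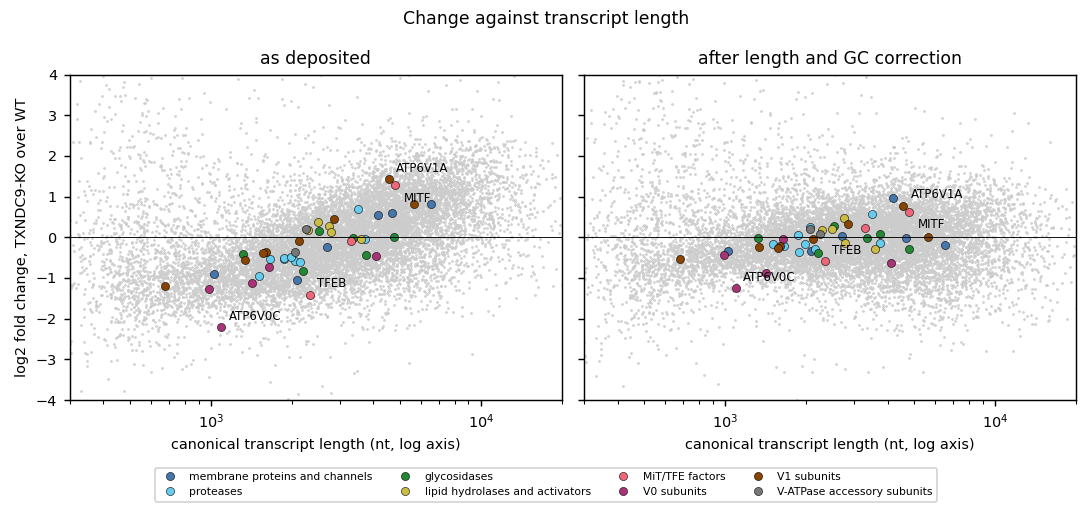
Log2 fold change of TXNDC9-KO over WT (y axis, cut to the range of most genes) against canonical transcript length in nt (x axis, log scale, cut likewise), as deposited on the left and adjusted for length and GC on the right, with all tested genes in grey and the 44 genes coloured by role. ATP6V0C moves from -2.20 to -1.24 and ATP6V1A from 1.42 to 0.78, and 33 of the 44 coloured points lie nearer to 0 on the right.

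The scale of the libraries also set the direction of small changes. Total FPKM was 805816 and 971102 in the WT libraries and 535973 and 568280 in the TXNDC9-KO libraries. Giving all libraries an equal total (TPM) raised the median of all tested genes by 0.67 on the log2 scale. The median of the 44 genes then became 0.32, against 0.59 for all tested genes, and 19 of the 29 genes that were below 0 as deposited were above it. On that scale ATP6V0C was the gene called lower, and 9 genes were called higher, namely ATP6V1A, MITF, LAMP2, ATP6V1C1, TPP1, SCARB2, CLCN7, LIPA and ATP6V1B2. Ratios between genes of a library do not depend on this choice.

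Other genes of the lysosome were counted from 5 further lists, which held 98 genes, 88 of them tested. Of the 88, 8 fell (9.09%, against 15.3% of all tested genes) and 10 rose (11.4%, against 14.2%) in TXNDC9-KO, with a median log2 fold change of 0.01, against -0.09 for all tested genes. With length and GC content adjusted for, 6 were called lower and 3 higher, and 2 of the 18 kept their call, ARSA and FNIP2. Among 26 tested further hydrolases and activators 1 fell and 1 rose (3.85% each, against 15.3% and 14.2% of all tested genes). The gene that fell was ARSA, the arylsulfatase that degrades sulfatide, at 14.98 and 16.2 FPKM in WT and 5.95 and 5.70 FPKM in TXNDC9-KO, with a log2 fold change of -1.40 (SE 0.11, adjusted p = 5.38e-04, limma). The canonical transcript of ARSA has 4294 nt, and with length and GC content adjusted for, its value was -1.19.

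Among 20 further membrane proteins 2 fell and 2 rose (10.0% each, against 15.3% and 14.2% of all tested genes). The lowest was TMEM175, a lysosomal potassium and proton channel, with a log2 fold change of -1.31, and the highest MFSD8, a transporter deficient in neuronal ceroid lipofuscinosis, with 1.20. SPNS1 fell and TMEM192 rose, with log2 fold changes of -1.18 and 1.13, and both were named after their values had been seen. Among 12 tested further V-ATPase subunits and assembly factors, TCIRG1, an alternative large V0 subunit, fell from 39.0 and 49.1 FPKM to 20.5 and 19.7 FPKM (log2 fold change -1.12). WDR7, a partner of the V-ATPase assembly factors of the DMXL family, rose from 2.42 and 1.84 FPKM to 5.28 and 4.27 FPKM (log2 fold change 1.13). Each of these calls was 8.33% of the 12, where 15.3% of all tested genes fell and 14.2% rose. With length and GC content adjusted for, TMEM175, SPNS1 and TCIRG1 were at -0.42, -0.34 and -0.34, and MFSD8, TMEM192 and WDR7 at 0.45, 0.17 and 0.31, all short of 2-fold. VMA21 and DMXL1 of the V-ATPase list were not called as deposited, at -0.66 and 0.03. After that adjustment both were called lower, at -1.43 and -1.11 (adjusted p = 0.00225 and 0.00206, limma). A further V0 large subunit, ATP6V0A2, was not called, with a log2 fold change of 0.74.

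The genes that hold mTORC1 on the lysosome and control the MiT/TFE factors moved in both directions. Of 15 tested genes, 4 fell (26.7%, against 15.3% of all tested genes) and 2 rose (13.3%, against 14.2%). All 6 are named here, of which the rule covered LAMTOR2 and FNIP2. LAMTOR2, a subunit of the Ragulator scaffold, was 132 and 175 FPKM in WT and 50.1 and 48.3 FPKM in TXNDC9-KO (log2 fold change -1.63, SE 0.16, adjusted p = 6.83e-04, limma). Its partners LAMTOR1 and LAMTOR4 also fell, with log2 fold changes of -1.40 and -1.12, while LAMTOR5 (-0.48) and LAMTOR3 (0.01) were not called. MLST8, a subunit of mTORC1 itself, fell with a log2 fold change of -1.14. FNIP2, which with folliculin regulates the Rag GTPases, was 0.752 and 0.633 FPKM in WT and 2.83 and 2.84 FPKM in TXNDC9-KO (log2 fold change 1.89, SE 0.25, adjusted p = 0.00146, limma), and FNIP1 rose with 1.24. Folliculin itself, FLCN, had a log2 fold change of 0.90 and was not called. The LAMTOR genes that fell have transcripts of 594 to 1089 nt and FNIP1 and FNIP2 of 6568 and 7038 nt, and with length and GC content adjusted for LAMTOR2, LAMTOR1, LAMTOR4 and MLST8 were at -0.95, -0.65, -0.42 and -0.24 and FNIP1 at 0.31, all short of 2-fold. FNIP2 was at 1.07 and still called. FLCN, not called as deposited, was at 1.01 with that adjustment (adjusted p = 0.00440, limma) and was called higher.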

How the data were processed

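Polyadenylated RNA of WT and TXNDC9-KO cells labelled HepG2 was sequenced in 2 libraries each. Reads had been aligned by the authors to hg38 (TopHat2, Ensembl annotation), and the FPKM of each gene in each library, from Cuffdiff, was deposited. Tool versions, library scaling and strand setting are not given in the sources used here. The deposited averages, fold changes and p-values and q-values of the authors' own comparison were not used. Counts were not used here, so the depth is unknown and no counting intervals are given.

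All but 1 line of the table paired a symbol and its values with the identifier of another gene. Rows were taken by symbol, and identifiers were put back in order, after which those of 44 of the 44 genes had the same symbol in GENCODE 44. Where a symbol repeated, the row with the highest mean was taken. Log2(FPKM + 0.1) of genes with a mean FPKM above 1 was compared with limma 3.58.1 in R 4.3.3 (trend in the prior variance, Benjamini-Hochberg adjustment over 13246 genes, no replicate block). Fold changes on this scale understate those of low genes. In simulated data limma recovered 90.5% of 200 changes of 1.5 on the log2 scale among 13246 genes, with 1 false call. The simulated noise was independent between genes and libraries, without shifts by length, GC content or library scale. These figures therefore check the fit and do not give the error rate of the calls in the deposited data. To adjust for length and GC content, a loess surface (span 0.3) was fitted in each library over 13112 genes.

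Genes given with full values are TXNDC9, the 3 factors, the accessory subunits and, in each other role group, the 2 largest changes and the highest level. Others were named by group. Some genes of the further lists are not reported here. The members, lists and alternatives were chosen with earlier results of these data known. Python 3.11.15, pandas 2.3.3, scipy 1.17.1 and matplotlib 3.10.9 were used. The alternatives were other pseudocounts (1 and 0.01), no filter or a mean above 5 FPKM, TPM, centring on the median, an adjusted p under 0.05, no trend, the replicate block, the length and GC correction and leaving out each library.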

Additional observations from a re-analysis of the deposited data

How the results depend on the processing

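Without the filter on low values 4 of the 6 lower genes were called, and ATP6V0E1 and MCOLN1 were not. With a pseudocount of 1 or 0.01, an adjusted p under 0.05, no trend or the replicate block, the same 6 genes were called lower and the same 2 higher. Both groups carry replicate numbers 1 and 2, but the deviations of same-numbered libraries had a correlation of -0.0904 across genes, and the libraries share only a number. With the replicate block 2146 genes were lower and 1960 higher over all, against 2021 and 1885 without it, and the median of the 44 genes stayed at -0.36. Rescaling to TPM gave 447 lower and 4380 higher genes over all (90.7% of calls higher, against 48.3%), and 1 lower and 9 higher of the 44. The medians became 0.32 for the 44, 0.45 for the hydrolases and 0.30 for the V-ATPase genes. Centring on the median gave medians of -0.51, -0.37 and -0.53, with 35.8% of the calls over all genes higher. The length and GC correction gave 1012 lower and 836 higher genes, and 1 and 0 of the 44, with medians of -0.086, -0.078 and -0.21. With the replicate block as well, these counts were 987, 724, 1 and 0 and the medians were the same. A mean above 5 FPKM left 9593 genes, 1220 of them higher, and without CTSH the hydrolases had a median of -0.031.

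On rescaling to TPM 19 of the 44 genes changed sign, and among the 20 genes given with full values those that did so were TXNDC9 (0.12), TFE3 (0.58), ATP6AP1 (0.31), CTSD (0.093), GAA (0.23) and GLA (0.26). After the length and GC correction 10 of the 44 did, and among the 20, with or without the replicate block, TFE3 (0.23), ATP6AP1 (0.21), CTSD (0.25) and GAA (0.084). The causes were not tested. Leaving out each library in turn, with the lone library of a group assumed to vary like the other group, gave 0 to 2633 lower and 0 to 2136 higher genes over all, and 0 to 8 lower and 0 to 2 higher of the 44. The counts of 0 came from leaving out either TXNDC9-KO library, after which the smallest adjusted p over all genes in limma was 0.0160 and 0.0232, while 7129 and 7307 genes had an unadjusted p under 0.05, 17 and 20 of the 44 among them. The medians ranged from -0.38 to -0.28 for the 44, from -0.28 to -0.15 for the hydrolases and from -0.49 to -0.37 for the V-ATPase genes.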

Other observations

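The genes that deliver enzymes to lysosomes were examined as a further list of 15, all tested, of which 4 rose and 0 fell in TXNDC9-KO by limma (adjusted p under 0.01 and at least 2-fold). The share that rose was 26.7%, against 14.2% of all tested genes, and 15.3% of all tested genes fell. At an unadjusted p under 0.05 from limma, 7 of the 15 were lower and 5 higher. Of the 13246 tested genes 9442 had such a p, in either direction. AP1G1, a subunit of the AP-1 adaptor that sorts enzyme receptors at the trans-Golgi, was 14.3 and 11.96 FPKM in WT and 42.9 and 42.7 FPKM in TXNDC9-KO, with a log2 fold change of 1.70 (SE 0.12, adjusted p = 5.12e-04, limma). The other subunits of this adaptor in the list, AP1S1, AP1M1 and AP1B1, had log2 fold changes of -0.60, -0.45 and -0.35 and were not called. SORT1, a sorting receptor, was 11.8 and 10.4 FPKM in WT and 23.0 and 23.9 FPKM in TXNDC9-KO. IGF2R, the large mannose 6-phosphate receptor, and GNPTAB, which helps to make the mannose 6-phosphate tag, also rose, with log2 fold changes of 1.09 and 1.15, and were named after their values had been seen. The other subunit of the tagging enzyme, GNPTG, had a log2 fold change of -0.85, and the uncovering enzyme NAGPA -0.87, both short of 2-fold. M6PR, the small receptor, had 0.23. The canonical transcripts of AP1G1, SORT1, IGF2R and GNPTAB have 6602, 6990, 14061 and 5720 nt, and those of GNPTG and NAGPA 1975 and 2203 nt. With length and GC content adjusted for, the 4 genes that rose were at 0.86, 0.35, 0.34 and 0.44, all short of 2-fold, and GNPTG and NAGPA at -0.25 and -0.095. AP1M1, with a canonical transcript of 12859 nt, was then at -1.25 (adjusted p = 0.00191, limma) and was the 1 gene of the list called. AP1S1 and AP1B1 were at 0.10 and -0.17.

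Of 6 fibroblast and endothelial markers, CDH5 rose from 0.751 and 1.07 FPKM to 4.26 and 3.14 FPKM and PDGFRB from 1.08 and 0.735 FPKM to 3.005 and 2.62 FPKM, while COL1A2 and KDR were listed at 0 in all 4 libraries. COL1A1 was 31.5 and 22.8 FPKM in WT and 20.7 and 17.5 FPKM in TXNDC9-KO, and PECAM1 did not exceed 0.261 FPKM.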
